A study of Rattus norvegicus with 4 samples.

Results

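The genes described here are 38 adipokine, lipogenesis and fat storage genes, the genes by which fat cells are usually recognised together with the enzymes that make, assemble and break down triglyceride. They were chosen by gene symbol, and 36 of the 38 had a probe on the rat array. Those 36 genes were read by 41 of the 30367 gene probes, which carried 26465 distinct gene names. Plin4 and Srebf1 had no probe under these names and were not analysed here.

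Gene expression was measured in the pancreas of male Sprague-Dawley rats fed diets of different iron content for 3 weeks. The iron-deficient diet (FeD) held 5 ppm iron, the iron-adequate control diet (FeA) held 35 ppm, and the iron-overload diet (FeO) held 20275 ppm. The RNA of 6 rats on a diet was combined into 1 pool, and for either test diet 2 two-colour Agilent arrays, with the dyes exchanged, set its pool against that of FeA. The comparisons ask how too little and too much dietary iron change expression in the pancreas. The animals were young after weaning, were fasted overnight before the tissue was taken, and all ate purified diets. Each diet was 1 pool, so the 2 arrays of a comparison repeat the measurement and not the biology: the spread between rats is unknown and no test of the diets was made. Both comparisons share the FeA pool.

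White fat cells store fatty acids as triglyceride in a lipid droplet coated with their own droplet proteins, and release hormones (adipokines) such as adiponectin and leptin. The nuclear receptor PPARG, with the factor CEBPA, drives the differentiation of these cells and most of the genes below. The exocrine pancreas, which makes digestive enzymes, is not a storage organ for fat, but in the rat it is a loose tissue lying in visceral fat. The genes were therefore sorted by textbook knowledge into 13 restricted largely to fat cells (12 with a probe), 9 shared by fat with liver, muscle or endothelium, and 16 lipid enzymes and their regulator found in many cell types (15 with a probe). The sorting is approximate: Slc2a4 and Car3, placed among the fat-cell-restricted genes, are also made by muscle.

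In the FeO pool the fat-cell-restricted genes were the highest of the 3 classes. Their median log2 ratio over FeA was 1.25 (1.14 on array 1 and 1.28 on array 2), against 0.18 for the shared genes (0.09 and 0.31), 0.47 for the broadly expressed enzymes (0.23 and 0.73) and 0.01 for all genes on the array. Of the 33 genes whose probes were well above background in at least 1 diet on both arrays, 12 were higher in FeO by a log2 ratio of 1 or more (a linear fold of 2) with the same sign on both arrays, where the background was 0.615% of 16415 genes. At a log2 ratio of 2 (a fold of 4) Adipoq and Car3 were higher, against a background of 0.0609%. That count depended on the setting, being 5 without the first FeO array and 6 with the scanner software's processed signals, under which the fat-cell-restricted median was 1.99 and the broadly expressed median 0.78. None of the 33 was lower at either size, against backgrounds of 0.463% and 0.116%. By class the 12 genes were 6 of 12 fat-cell-restricted genes, 3 of 9 shared genes and 3 of 12 broadly expressed genes. Since 1 fat-cell gene, Plin1, passed the signal filter only through its FeO signal, the medians were taken over all genes with a probe. The log2 ratios of the 2 FeO arrays differed by a median of 0.30 over these genes and 0.18 over all genes. In bulk RNA, more cells of a type and more RNA per cell cannot be told apart.

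In the FeD pool the ratios were smaller. None of its 33 measurable genes reached a log2 ratio of 1, higher or lower, where the backgrounds were 0.115% and 0.242% of 15718 genes. None reached 2, with backgrounds of 0.0191% and 0.0827%. The class medians in FeD were -0.02 for fat-cell-restricted genes, -0.06 for shared genes and 0.08 for broadly expressed genes, beside 0.01 for all genes. Of the 15 broadly expressed genes 8 were above 0 on both FeD arrays and 1 below, a share of 53.3% above 0 where that over all genes was 25.5%. The share was 25% for the fat-cell-restricted genes and 33.3% for the shared genes. These shares took in dim genes: of the 8, Acaca and Lpin1 were not well above background in either diet.

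**Figure D1:**
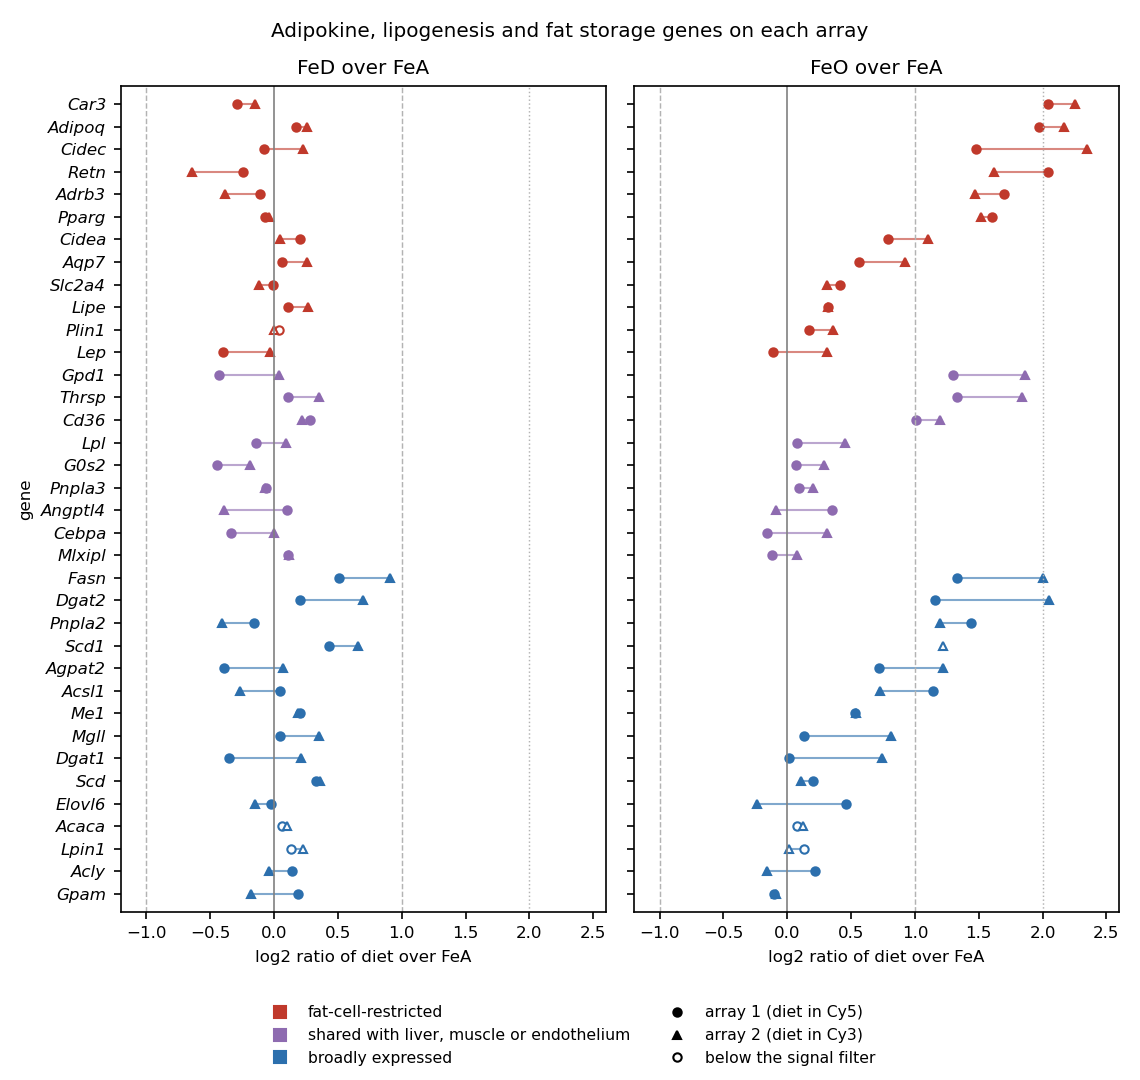
Log2 ratio of each gene over FeA on each array, FeD on the left and FeO on the right. Circles are array 1 (diet in Cy5), triangles array 2 (diet in Cy3), open symbols lie below the signal filter, and dashed and dotted lines mark log2 ratios of 1 and 2 in size. In FeO, 12 genes with filled symbols have a mean past 1, and in FeD none does.

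**Figure D2:**
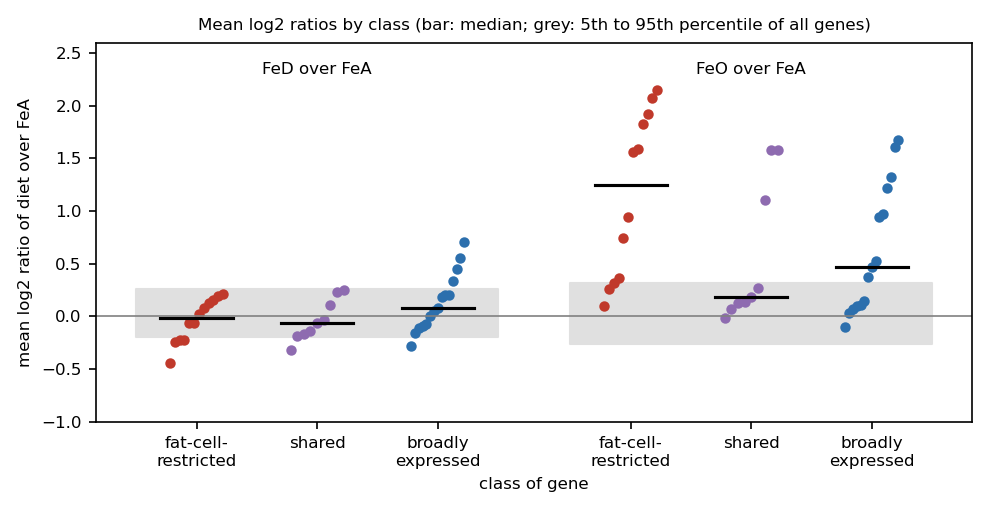
Mean log2 ratio over FeA of each gene by class. Black bars are class medians and the grey band spans the 5th to 95th percentile of all genes (-0.20 to 0.26 in FeD, -0.26 to 0.32 in FeO). The band describes single genes and is no yardstick for a median. In FeO the medians are 1.25, 0.18 and 0.47 from left to right, and single genes of all 3 classes lie above the band.

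Among the 3 adipokines, 2 were higher in FeO and the third was not. Adipoq encodes adiponectin, the insulin-sensitising hormone secreted almost only by fat cells. Its normalised signal, in log2 intensity, was 12.36 and 12.37 on the FeO arrays, 10.45 and 10.34 in FeD, and 10.28, 10.08, 10.39 and 10.20 in the FeA channels. Both FeO values lay above every other value, while FeD exceeded the highest FeA value on 1 of its arrays. The log2 ratios over FeA in FeO were 1.97 and 2.17 (mean 2.07, SD 0.14 over 2 arrays, a 4.20-fold level), and the FeD mean was 0.21.

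Retn encodes resistin, in rodents an adipokine of white fat. On the log2 scale its signal was 11.08 and 10.81 in FeO, 8.48 and 8.29 in FeD, and 8.72, 8.93, 9.04 and 9.19 in FeA. The pools did not overlap, with FeO above FeA and FeD below it. The log2 ratio was 2.04 and 1.62 in FeO (mean 1.83, SD 0.30, 3.55-fold) and -0.24 and -0.64 in FeD (mean -0.44, SD 0.28).

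Lep encodes leptin, the hormone by which fat stores signal to the brain. Its signal on the log2 scale was 11.35 and 11.74 in FeO, 11.13 and 10.05 in FeD, and 11.53, 10.07, 11.46 and 11.43 in FeA. The values followed the array rather than the diet: on the second FeD array both channels were near 10, and the pools overlapped. The log2 ratios disagreed in sign between the FeO arrays (-0.11 and 0.31, mean 0.10) and were -0.40 and -0.03 in FeD. Leptin, though bright, was thus not among the genes high in the FeO pool.

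**Figure D3:**
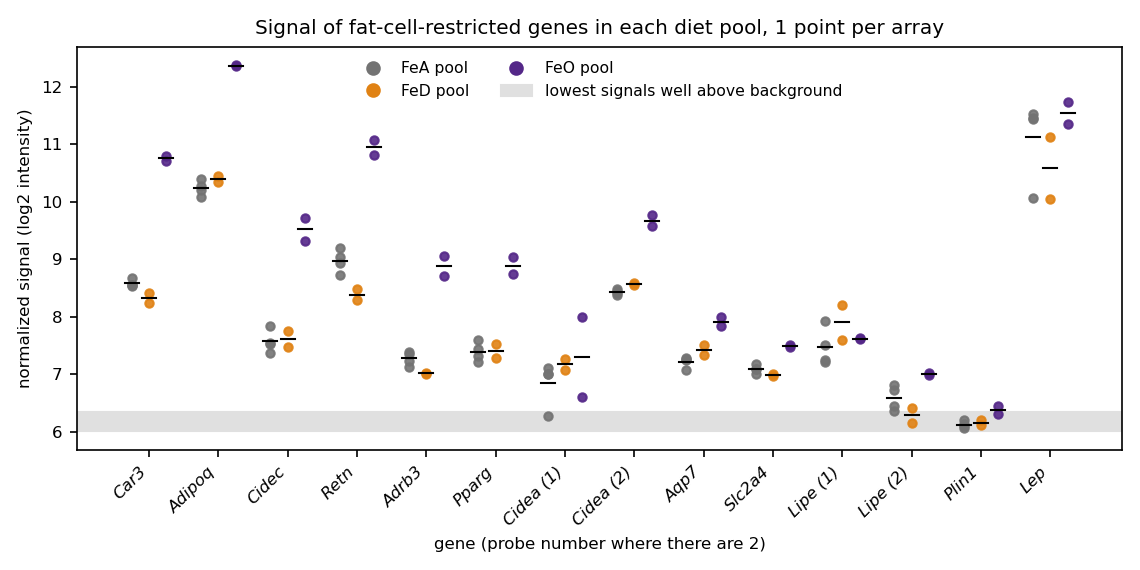
Normalised log2 signal of the fat-cell-restricted genes in each diet pool, 1 point per array and a bar at the mean. The grey band marks where the lowest signals well above background lay, from 6.01 to 6.35 over arrays and channels. FeO points of Car3, Adipoq, Cidec, Retn, Adrb3 and Pparg lie above all FeA points. So do those of Aqp7, Slc2a4, the brighter Cidea probe and the dimmer Lipe probe, and those of Plin1 at the edge of the band. Lep points overlap.

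Lipid droplet proteins differed among themselves. Cidec (FSP27) joins droplets into the single large droplet of a white fat cell. Its log2 signal was 9.32 and 9.72 in FeO, 7.47 and 7.75 in FeD, and 7.55, 7.52, 7.84 and 7.37 in FeA, so that only FeO stood clear of the control. The log2 ratio in FeO was 1.48 and 2.35 (mean 1.92, SD 0.62, 3.77-fold), with the wider gap between the arrays.

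Cidea, the related droplet protein of brown and beige fat, was read by 2 probes. In FeO the brighter probe gave 1.27 and 1.19 and the dimmer one 0.31 and 1.00, on an FeA signal that was well above background on 1 of its 2 arrays. The mean over both, 0.94, fell just below the size of 1, and the probes disagreed about whether it was passed. In FeD the mean was 0.13.

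Plin1, perilipin, coats the droplet and guards it from lipases. Its probe was dim: the log2 signal was 6.31 and 6.45 in FeO and between 6.06 and 6.20 in every FeA channel, and only FeO was well above background on both arrays. Only a bound can be given, at least 1.1-fold higher in FeO. In FeD neither diet was well above background.

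The genes of lipolysis, which frees fatty acids from the droplet, had unlike ratios. Adrb3, the beta-3 adrenergic receptor that starts lipolysis in rodent fat, gave a log2 signal of 9.05 and 8.70 in FeO, 7.02 and 7.01 in FeD, and 7.13, 7.39, 7.35 and 7.23 in FeA. FeO was above and FeD below all FeA values. The log2 ratio in FeO was 1.70 and 1.47 (mean 1.59, SD 0.16, 3.00-fold), and in FeD it was -0.11 and -0.38 (mean -0.24).

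Pnpla2 (ATGL) removes the first fatty acid from triglyceride in many tissues. Its pools read, as log2 signal, 9.97 and 9.53 in FeO, 8.15 and 8.18 in FeD, and 8.32, 8.59, 8.53 and 8.33 in FeA, the same order of pools as for Adrb3. The log2 ratio was 1.44 and 1.20 in FeO (mean 1.32, SD 0.17, 2.5-fold) and -0.16 and -0.41 in FeD (mean -0.28).

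The later lipases were nearer the control. Lipe, hormone-sensitive lipase, had a mean log2 ratio of 0.32 in FeO over 2 probes and 0.19 in FeD. Mgll, which completes the breakdown, had 0.47 in FeO, with 0.13 on one array and 0.81 on the other, and 0.20 in FeD. G0s2, an inhibitor of ATGL, had 0.18 in FeO and -0.32 in FeD, where both arrays were below 0. Pnpla3, a lipase relative best known from liver fat, was dim and had 0.14 in FeO and -0.06 in FeD.

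Of the 6 genes of uptake and transport, Cd36 was higher by the size of 1 in FeO. Cd36, a fatty acid carrier of fat, muscle, macrophages and capillary endothelium, was read by 2 probes. In FeO they gave log2 ratios of 1.13 and 0.99, and of 0.89 and 1.41 (gene mean 1.1, SD 0.14, 2.15-fold). On the brighter probe the log2 signal was 12.09 and 11.83 in FeO, 11.27 and 10.98 in FeD, and 10.89, 10.91, 10.96 and 10.84 in FeA. Here FeD also lay above the FeA range, by little on its second array. On the dimmer probe FeD (9.19 and 9.13) overlapped FeA (9.02, 8.75, 9.16 and 8.69). The gene mean in FeD was 0.25.

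Aqp7, the channel through which fat cells release glycerol, had log2 ratios of 0.56 and 0.92 in FeO (mean 0.74) and a mean of 0.16 in FeD. Slc2a4 (GLUT4), the insulin-responsive glucose transporter of fat and muscle, had 0.41 and 0.31 in FeO (mean 0.36) and -0.06 in FeD. Acsl1, which activates fatty acids for storage or oxidation, had 1.14 and 0.73 in FeO (mean 0.94) and -0.11 in FeD. All 3 were above 0 on both FeO arrays and below the size of 1.

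Lpl, lipoprotein lipase, which frees fatty acids from circulating lipoproteins, had a mean log2 ratio of 0.27 in FeO and -0.03 in FeD. Angptl4, a fasting-induced inhibitor of that lipase, had 0.13 and -0.14, with opposite signs on the arrays of each comparison. Fat-expressed genes shared with other tissues were therefore not uniformly high in the FeO pool.

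Fatty acid synthesis showed 2 genes past the size of 1 in FeO and the highest values in FeD. Fasn, fatty acid synthase, gave a log2 signal of 11.02 and 11.27 in FeO, 9.84 and 10.07 in FeD, and 9.33, 9.16, 9.69 and 9.27 in FeA. Both FeD and FeO lay above all FeA values, FeO by more. The log2 ratio was 1.33 and 2.00 in FeO (mean 1.67, SD 0.48, 3.17-fold) and 0.51 and 0.91 in FeD (mean 0.71, SD 0.28, 1.64-fold).

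Thrsp (Spot 14) is a lipogenic protein of fat, liver and mammary gland that responds to thyroid hormone and carbohydrate. The log2 signal was 10.88 and 11.05 in FeO, 9.18 and 9.64 in FeD, and 9.07, 9.29, 9.55 and 9.22 in FeA, so that FeD overlapped the control and FeO did not. The log2 ratio in FeO was 1.33 and 1.84 (mean 1.58, SD 0.36, 3.00-fold), and in FeD the mean was 0.23.

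The stearoyl-CoA desaturases, which make monounsaturated fatty acids, were read by 2 probes whose names have since changed. The probe listed as Scd1, today the rat gene Scd, had log2 ratios of 0.43 and 0.66 in FeD (mean 0.55, SD 0.16, 1.46-fold). In FeO it gave 1.22 on the second array alone, because its spot on the first array was marked as an outlier by the scanner software, and it was not counted. The probe listed as Scd, today Scd2, had 0.34 in FeD and 0.15 in FeO.

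The other synthesis genes did not reach the size of 1 in FeO. Me1, malic enzyme, which supplies NADPH, had log2 ratios of 0.53 and 0.54 in FeO over 2 probes (mean 0.53, SD 0.01, 1.45-fold) and a mean of 0.20 in FeD. Acly, ATP-citrate lyase, was bright at a log2 FeA signal of 12.08 (SD 0.16 over 4 channels) and had 0.03 in FeO and 0.05 in FeD. Elovl6, the elongase of long-chain fatty acids, had 0.11 in FeO with opposite signs on the arrays and -0.09 in FeD. Acaca, acetyl-CoA carboxylase, was not well above background on both arrays in any diet. In the FeO pool the ratio of Fasn was thus well above that of Acly, which works earlier on the same route.

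Triglyceride assembly again held genes at either end. Dgat2, which catalyses the last step of triglyceride synthesis, gave a log2 signal of 10.16 and 10.64 in FeO, 8.93 and 9.26 in FeD, and 8.73, 8.56, 9.0 and 8.59 in FeA. FeO was clear of FeA, and FeD overlapped it at its lower value. The log2 ratio was 1.16 and 2.05 in FeO (mean 1.61, SD 0.63, 3.04-fold) and 0.20 and 0.70 in FeD (mean 0.45).

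Gpd1 makes the glycerol-3-phosphate on which triglyceride is built. The log2 signal was 11.25 and 11.45 in FeO, 9.27 and 9.52 in FeD, and 9.69, 9.49, 9.96 and 9.58 in FeA, with FeO alone above the control. The log2 ratio in FeO was 1.30 and 1.86 (mean 1.58, SD 0.40, 2.99-fold), and the FeD arrays gave -0.43 and 0.04.

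Agpat2, the acyltransferase whose loss causes lipodystrophy, had log2 ratios of 0.72 and 1.22 in FeO (mean 0.97) and -0.16 in FeD. Dgat1, the other enzyme of the last step, had 0.37 in FeO and -0.07 in FeD. Gpam, the mitochondrial acyltransferase of the first step, had -0.10 and 0.00. Lpin1, a phosphatidate phosphatase, was not well above background in any diet. Dgat2 and Dgat1 catalyse the same reaction, and in FeO the first was past the size of 1 and the other was not.

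Of the transcription factors, Pparg alone was past the size of 1. Its log2 signal was 9.03 and 8.74 in FeO, 7.52 and 7.28 in FeD, and 7.59, 7.32, 7.44 and 7.21 in FeA. FeO was above every other value, and FeD lay within the FeA range. The log2 ratios in FeO were 1.60 and 1.52 (mean 1.56, SD 0.05, 2.95-fold). Cebpa, its partner in fat cell differentiation, had 0.07 in FeO and -0.17 in FeD. Mlxipl (ChREBP), the carbohydrate-responsive regulator of lipogenesis, had -0.02 in FeO and 0.11 in FeD.

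Car3, carbonic anhydrase III, one of the most abundant proteins of rodent fat cells and of slow muscle, was the highest of all in FeO. Its log2 signal was 10.71 and 10.80 in FeO, 8.24 and 8.41 in FeD, and 8.53, 8.56, 8.67 and 8.55 in FeA. FeO lay above and FeD below the control. The log2 ratio in FeO was 2.04 and 2.25 (mean 2.15, SD 0.14, 4.42-fold), rank 9 from the highest of 16415 genes, followed by Adipoq at rank 10, Cidec at 13 and Retn at 14. Car3 can also be made by muscle, so skeletal muscle markers, not chosen for slow muscle, stand beside it. The part of muscle in the Car3 ratio was not tested. Of 6 skeletal muscle genes 1, Mb, passed the signal filter. None of the 6 was past the size of 1, beside backgrounds of 0.615% higher and 0.463% lower. Their summed linear intensity was 561 and 560 in FeO against 621 and 555 in FeA, much of it signal near background. Ckm and Acta1 had ratios of -0.13 and -0.01 and did not pass the filter.

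Promoters are shown because 12 of the genes were higher together in the FeO pool. RefSeq promoter entries of the GRCr8 build were held for 25 of the genes (32 entries), 7 of the 12 among them, and the 250 bases before the start site were searched on both strands. Thrsp (past the size of 1 in FeO), Lep (not past it) and 30 bases of Adipoq are printed, 5′ to 3′ along the gene, with motifs in capitals. They lie at chr1:161138975-161139114 (minus strand), chr4:58626388-58626527 (plus strand) and chr11:91240198-91240227 (minus strand). For Thrsp and Lep the stretch runs from base -150 to -11, counted from the start site, and lies outside the annotated gene. The Adipoq stretch runs from base -58 to -29 of the entry's start site, and all 30 of its bases lie inside the annotated Adipoq gene, which begins further upstream.
Thrsp: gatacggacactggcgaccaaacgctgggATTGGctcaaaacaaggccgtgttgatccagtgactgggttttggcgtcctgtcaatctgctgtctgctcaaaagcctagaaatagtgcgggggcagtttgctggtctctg
Lep: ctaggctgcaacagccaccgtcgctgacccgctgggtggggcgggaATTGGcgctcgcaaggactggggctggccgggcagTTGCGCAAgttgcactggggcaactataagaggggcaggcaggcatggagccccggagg
Adipoq: gccctgactgggctggCCAATggtgagctg

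ATTGG and CCAAT are the same motif on opposite strands, the CCAAT box, found in 15 of the 32 entries and in 34% of 33469 rat promoters. TTGCGCAA, a palindromic site of C/EBP factors, was found in Lep from base -69 to -62 and in 0.14% of promoters, 47 in all. AGGTCA, the core bound by nuclear receptors such as PPARG, was found in Retn (14.1% of promoters). A pair of these cores 1 base apart, with up to 2 mismatches, was found in Acly (3.15%), and the E-box CACGTG in Mgll (5.59%). TATAAA was found in Angptl4, Cd36 and Cebpa (12.9% of promoters). Of the 7 genes high in FeO with an entry, Adipoq, Pparg and Thrsp thus held a CCAAT box, Retn AGGTCA and Cd36 TATAAA, and Cidec and Pnpla2 held none of the motifs searched.

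Other genes of the same pathways were counted from a list of 39, of which 37 had a probe. None of the 31 measurable in FeO and none of the 30 measurable in FeD reached a log2 ratio of 1, and the list medians were 0.06 and 0.02. The backgrounds, higher and lower, were 0.615% and 0.463% in FeO and 0.115% and 0.242% in FeD. Among so few genes a count of 0 does not differ from these. The highest in FeO were Cav1, caveolin of fat cells and endothelium (0.99), Insig1, a brake on sterol and fat synthesis (0.87), Gpihbp1, which holds lipoprotein lipase on capillaries (0.75), and Fitm2, which helps to form droplets (0.73). Plin2, the droplet protein of most cells that hold fat, had 0.33. Of 11 measurable fatty acid oxidation genes none was past 1 in FeO, against the same backgrounds, and the list median was 0.03.

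Fat-cell markers outside the 38 genes were also higher in FeO, 7 of the 9 with a probe being above 0 on both arrays where 26.5% of all genes were. Of 10 listed, 8 passed the signal filter and 3 were higher by the size of 1, beside the background of 0.615%. These 3 were Cfd (adipsin) at a mean log2 ratio of 2.31, Pck1 at 1.55 and Fabp4, the fat-cell fatty acid binding protein, at 1.47. Pck1 is an enzyme on the route to glycerol-3-phosphate in fat. The other measurable markers were Rbp4 (0.96), Acvr1c (0.95), Sncg (0.72), Mrap (0.62) and Lgals12 (-0.04). Rbp4, retinol binding protein, was also above the control in FeD, at 0.77 and 0.74 on the arrays (mean 0.75). The list's summed linear intensity was 31203 and 29384 in FeO against 8433 and 7497 in FeA on the same arrays, and 7262 and 7373 in FeD against 7974 and 7718. Its median was 0.95 in FeO and -0.02 in FeD. The part that the amount of fat in each pool plays in the ratios of the 38 genes was not tested.

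Ucp1, the defining gene of brown fat, was not well above background on both arrays in any diet. The brown fat list of 5 had a median of -0.01 in FeO (summed linear intensity 413 and 400 against 382 and 399 in FeA). Of the 5, 2 passed the signal filter in FeO, so much of the sum is signal near background. Liver markers had a median of -0.05 in FeO, from -0.48 for Ttr to 0.62 for Alb (sums 1913 and 1915 against 1812 and 1711). No marker of endothelium, mesothelium or macrophages was past the size of 1 in FeO, where the backgrounds were 0.615% higher and 0.463% lower. The 6 endothelial markers had a median of 0.35 in FeO, all above 0 on both arrays where 26.5% of all genes were (sums 2871 and 2799 against 1972 and 2077), and 0.22 in FeD, 4 of them above 0 on both arrays (3011 and 2666 against 2356 and 2343). The 3 mesothelial markers had a median of 0.47 in FeO (2753 and 2402 against 1668 and 1324). The 5 macrophage markers had a median of 0.28, from 0.11 for Csf1r to 0.95 for Cd163 (1883 and 2123 against 1451 and 1954). The part of these cells in the ratios of the shared genes, such as Cd36, was not tested.

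Pancreatic enzyme and islet genes were bright in all pools. In FeO the 7 acinar markers with a probe had a median of -0.28. Of these, 5 passed the signal filter, none of them past the size of 1, beside backgrounds of 0.615% higher and 0.463% lower. The summed linear intensity was 2565596 against 2824944 in FeA on array 1, and 1752135 against 2268735 on array 2. Cpa1 and Prss1 had no value on array 2, so its sums leave them out and cannot be set against those of array 1. The 5 islet markers had a median of -0.77, with Iapp at -1.02 and Gcg at 1.14. The 4 duct markers had a median of 0.09, with Krt19 at -0.98, Krt7 at 0.05, Sox9 at 0.13 and Cftr at 0.30. The 4 lymphocyte markers had a median of -0.46 in FeO and 0.49 in FeD. Markers of intestinal epithelium were lower in both pools than in the shared FeA pool, with medians of -1.74 in FeO and -1.61 in FeD. In each, 4 of 5 (Cdh17, Krt20, Tff3 and Agr2) were lower by the size of 1, beside backgrounds of 0.463% in FeO and 0.242% in FeD. The part of this intestinal difference in the fat gene ratios was not tested.

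**Figure D4:**
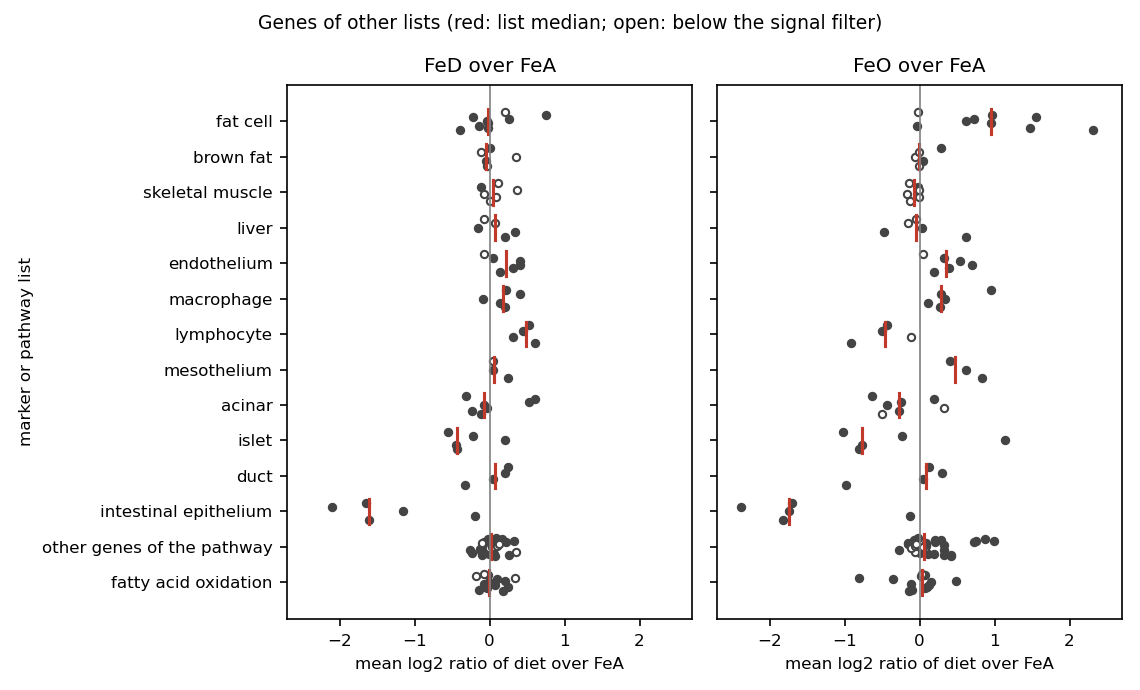
Mean log2 ratio over FeA of the genes of other marker and pathway lists, FeD on the left and FeO on the right. Each point is a gene, open points lie below the signal filter and red bars are list medians. The fat cell list has a median of 0.95 in FeO and -0.02 in FeD, and the intestinal list is below 0 in both.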

How the data were processed

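RNA from the pancreas of 6 rats made up the pool of each diet, and 4 two-colour Agilent arrays were read (2 per comparison, dyes exchanged). The authors deposited the scanner output, whose spot intensity and local background are linear values written by Agilent Feature Extraction 10.1.1.1. Per the labels each array was a slide of its own, while the file headers give all 4 the same slide and scan. The deposited tables of the authors' comparisons, which hold fold changes, p-values, q-values and a tag that keeps or discards a gene, gave gene symbols and nothing else.

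Median spot signals were corrected with limma 3.58.1 in R 4.3.3 (normexp, offset 50), normalised within each array by loess, and turned to diet over FeA. Channel signals were scaled with Aquantile. Control spots and outlier spots (722 to 938 per array) were left out, and 61.6% to 71.4% of spots per channel were well above background; signal over background, not read depth, limits precision. Repeated spots (1390 probes had 10) and then probes of a gene were averaged. A probe counted when it was well above background on both arrays of the comparison in at least 1 diet. Where 1 diet was not above background on either array, a bound was computed against the lowest signal well above it. A gene was counted at a mean log2 ratio of 2 (the size the methods use) or 1, with the same sign on both arrays. No p-value was computed for diets, because each diet is 1 pool.

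Symbols came from the authors' table by probe (19184 probes as given, 3765 with an older symbol updated through RefSeq). Looking up the accession of the other 7418 probes in RefSeq named no more, and they kept the file's own identifier. Plin1 was found under its older symbol Plin. All genes with a probe are named; of the other lists, genes past a log2 ratio of 1 and the defining markers. Some further list genes are named for their place in the order, chosen after their values were seen. The genes and lists were chosen with earlier results of these data known. Promoters are RefSeq's (GRCr8). Scripts were tested on simulated data. Alternatives covered background correction, signal, normalisation, filter, probe choice, outlier spots, each array left out, names, and tests of technical error.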

Additional observations from a re-analysis of the deposited data

Results flagged for a closer look

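For 8 genes both FeO arrays lay above FeA and both FeD arrays below it. The gap between the mean log2 ratios, FeO minus FeD, was 2.36 for Car3, 2.27 for Retn, 1.83 for Adrb3, 1.62 for Pparg, 1.60 for Pnpla2, 0.50 for G0s2, 0.42 for Slc2a4 and 0.21 for Pnpla3. Of the 36 genes with a probe, 28 were above 0 on both FeO arrays and 9 below 0 on both FeD arrays. Over all 26465 genes these numbers were 7018 and 5910. The share of all genes with both signs was not computed, so the 8 are no sign of an opposite response in FeD. The gaps were not tested, since each diet is 1 pool and both ratios share the FeA pool. For Pparg, Slc2a4 and Pnpla3 the FeD means were each -0.06, close to no difference.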

How the results depend on the processing

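No result changed direction from a value past its size under any alternative run. The count of genes higher in FeO by a log2 ratio of 2 was 2, and it became 4 with a normexp offset of 0, 6 with the scanner software's processed signals, and 2 to 5 with either array left out (5 without the first). The count at a log2 ratio of 1, 12 in the main run, was 15 with offset 0, 16 with processed signals and 14 with median centring. It was 14 without the first FeO array and 13 without the second. With limma's test of technical error after Benjamini-Hochberg adjustment it was 12, where that test passed 140 of all 16415 genes. With the methods' t-test after that adjustment the counts at 1 and 2 were both 0, and no gene of the array passed. Unadjusted and at any size, that t-test passed 18 of the 33 genes in FeO, beside 1320 of 16415 genes. In FeD it passed 4 of 33, beside 1000 of 15718, and limma's test passed none after adjustment, beside 63 of 15718. At a log2 ratio of 0.5, added after seeing the data, 2 genes were higher in FeD, Fasn and Scd1. The fat-cell-restricted median in FeO, 1.25, was 1.58 with offset 0, 1.99 with processed signals, 1.56 with both diets above background, 1.40 by the brightest probe, 1.56 with names from the accession alone and 1.14 to 1.28 with an array left out. In FeO the broadly expressed median, 0.47, was 0.78 with processed signals and 0.23 to 0.73 with an array left out, and the shared median, 0.18, was 0.09 to 0.31 with an array left out. In FeD the fat-cell-restricted median was -0.06 with offset 0, -0.10 with processed signals and -0.08 to -0.02 with an array left out. The shared median in FeD was -0.14 with offset 0 and -0.06 to 0.04 with an array left out, and the broadly expressed median 0.22 with offset 0, 0.03 with median centring and 0.13 to 0.19 with an array left out. Under the alternatives 118 counts, those of 12 to 16 at a log2 ratio of 1 included, stayed within 1.5 times the main count. Most of the 118 were 0 under both settings. A further 51 medians moved by no more than the SD between the 2 array medians, a loose yardstick where the arrays differ. Those of the shared and broadly expressed genes in FeO were among them, the broadly expressed move from 0.47 to 0.78 included. Plin1 in FeO ran from 0.17 to 2.27, the latter with processed signals. The array files hold no gene names, so names from the accession alone stood in for that alternative. No paired analysis was possible because each diet is 1 pool and no test of the diets was made.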
